A study of Mus musculus with 17 samples.

Results

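A set of 10 enzymes and carriers that bring glucose into the cell and break it down were followed in mouse common myeloid progenitors (CMPs), blood-forming precursors that still give rise to both myeloid and red cell lineages. The genes were given by name, with no threshold on a measured value. They are the glucose transporter Slc2a1, the hexokinase Hk2, the phosphoglucose isomerase Gpi1, the phosphofructokinases Pfkl and Pfkp, the triosephosphate isomerase Tpi1, the phosphoglycerate kinase Pgk1, the phosphoglycerate mutase Pgam1, the enolase Eno1 and the lactate dehydrogenase Ldha. All 10 had a counted transcript, among 24416 genes in all. RNA-seq was done on CMPs sorted by flow cytometry, in 17 libraries of 7 groups. The groups were fetal liver labelled Lin28b KO (n = 3), inducible let-7 fetal liver (n = 1), wild-type fetal liver (n = 3), adult bone marrow with inducible LIN28B under vavcre (n = 2), adult bone marrow with inducible LIN28B and no vavcre (n = 2), let-7b/c knockout adult bone marrow (n = 3) and wild-type adult bone marrow (n = 3). The LIN28B protein binds let-7 precursors in fetal progenitors and holds back their maturation. The design text describes induction under vavcre as specific to blood-forming cells. The treatment protocol, which names doxycycline to induce Lin28b, is the same text for all 17 libraries, so the labels do not say which groups received the drug. The let-7b/c knockout mice were of the albino black 6 strain and all others C57BL/6J, so this genotype and strain cannot be told apart. Ages, pooling of animals and whether replicates came from separate animals were not in the labels, and the p-values below measure only the spread between these libraries.

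Glycolysis splits glucose into pyruvate in the cytosol. A carrier in the plasma membrane lets glucose in, hexokinase traps it as a phosphate ester, phosphofructokinase commits it to the pathway, and the later enzymes recover ATP and NADH. Lactate dehydrogenase turns pyruvate into lactate and so returns NAD. Blood progenitors are known to rely on glycolysis, and red cells, which lose their mitochondria, depend on it entirely. Human red cells carry much SLC2A1 protein in their membrane, and protein of these mouse cells was not measured here. The hypoxia-inducible factor HIF1A and MYC family proteins are known activators of many of these genes.

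Counts on genes ranged from 14957111 to 28165554 per library. Values below are CPM, the count scaled to a library of 1000000 gene counts, with library sizes adjusted by the trimmed mean of M values (TMM). A gene was called when its adjusted p was under 0.05 (edgeR's quasi-likelihood test, Benjamini-Hochberg over 13558 genes). Where libraries are said not to overlap, this only describes the values of that gene. The share of all tested genes without overlap was not counted. The deposited counts leave out reads that fit several transcripts, which were 23.8% to 29.8% of uniquely placed reads in each library. Of the members 7, Slc2a1, Hk2, Gpi1, Pfkl, Tpi1, Pgk1 and Pgam1, have 1 counted transcript each and at least 10 CPM in a library. Pfkp, Eno1 and Ldha stayed under 10 CPM in every library, a limit chosen after seeing the data. Over all 17 libraries Pfkp had 434 counts, Eno1 226 and Ldha 178, and 2 of the 3 Ldha transcripts had 0 counts. Gapdh, Aldoa, Hk1, Hk3, Pfkm and Ldhb were as sparse, so the aldolase, dehydrogenase and lactate steps cannot be read from these files. The near-identical copy Eno1b held more counts than Eno1, with 16.4 CPM in wild-type fetal liver and 7.05 CPM in wild-type bone marrow on average. None of the 3 sparse members was called in any comparison. Their levels are not taken as the levels of these genes in the cells. Named pseudogene copies exist in the annotation for Pgk1 (3), Pgam1 (2) and Ldha (2), and reads shared with them could be split or lost.

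Of the 9 myeloid progenitor markers, 7 had a group mean of 1 CPM or more in every group, Mpo and Cd34 among them. Kit and Cebpa had 0 counts in every library. Cd34 averaged only 1.02 ± 0.521 CPM (median 0.763) in the libraries labelled Lin28b KO, against 5.63 ± 0.916 CPM in wild-type fetal liver. Since ambiguous reads were left out, a count of 0 is not taken as absence of the RNA in the cells. Lin28b itself averaged 103.8 ± 12.9 CPM in the libraries labelled Lin28b KO and 104.2 ± 17.6 CPM in wild-type fetal liver (SD, n = 3 each), so the counts do not show the labelled loss. Which part of the gene was deleted is not in the sources used here, and a transcript that lacks a few exons would still be counted. The same libraries stood apart in red cell genes. Summed over 23 erythroid markers they held 33969 to 39248 CPM, against 487.2 to 750.4 CPM in wild-type fetal liver. Summed hepatocyte markers reached 489.5 to 1568 CPM there, against 122.6 to 132.3 CPM in wild-type fetal liver. The inducible let-7 library also stood apart. Of 6502 genes at 10 CPM or more in all wild-type fetal liver libraries, 152 had 3 counts or fewer in it, against 0 to 17 in the others.

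The promoters of 4 members are shown as examples of the profiles described below: Slc2a1 varied most, Pgk1 and Pgam1 had the most alike profiles among the well-counted members, and Tpi1 followed neither fully. Each run is the RefSeq window on GRCm38.p6 from 250 bases before to 50 bases after the annotated start, written 5′ to 3′ on the gene's strand. Capitals mark ACGTG or its reverse complement CACGT, the core that HIF proteins bind and that is also part of the E-box CACGTG of MYC family proteins.
Slc2a1, chr4:119108495-119108794, plus strand: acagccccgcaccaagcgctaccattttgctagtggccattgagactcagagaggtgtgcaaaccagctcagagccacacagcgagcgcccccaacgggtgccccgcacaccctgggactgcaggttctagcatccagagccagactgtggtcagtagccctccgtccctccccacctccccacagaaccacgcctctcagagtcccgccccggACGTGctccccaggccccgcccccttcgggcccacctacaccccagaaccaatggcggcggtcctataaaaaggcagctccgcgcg
Pgk1, chrX:106186850-106187149, plus strand: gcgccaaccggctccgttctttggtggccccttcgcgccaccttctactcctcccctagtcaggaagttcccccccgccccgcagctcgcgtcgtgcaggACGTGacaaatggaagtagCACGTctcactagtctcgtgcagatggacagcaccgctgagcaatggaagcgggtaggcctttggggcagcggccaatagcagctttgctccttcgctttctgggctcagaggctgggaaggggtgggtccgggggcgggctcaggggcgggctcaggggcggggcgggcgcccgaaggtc
Pgam1, chr19:41911621-41911920, plus strand: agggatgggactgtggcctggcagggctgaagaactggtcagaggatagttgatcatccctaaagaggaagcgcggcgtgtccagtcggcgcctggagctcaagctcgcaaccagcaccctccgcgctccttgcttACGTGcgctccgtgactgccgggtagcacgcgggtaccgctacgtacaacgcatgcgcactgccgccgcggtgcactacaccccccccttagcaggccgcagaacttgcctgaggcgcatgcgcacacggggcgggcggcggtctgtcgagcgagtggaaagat
Tpi1, chr6:124814109-124814408, minus strand: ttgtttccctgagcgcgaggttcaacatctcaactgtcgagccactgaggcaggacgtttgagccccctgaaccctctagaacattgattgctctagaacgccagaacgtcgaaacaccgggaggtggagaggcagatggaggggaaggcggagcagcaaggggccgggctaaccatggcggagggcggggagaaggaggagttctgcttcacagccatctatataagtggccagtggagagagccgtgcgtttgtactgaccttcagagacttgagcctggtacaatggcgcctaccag

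Counted with the start as +1, the match began at -36 in Slc2a1, at -150 and -131 in Pgk1 and at -114 in Pgam1. In RefSeq annotation on the same build, the Slc2a1 gene spans chr4:119108745-119137330, Pgk1 chrX:106187100-106203699, Pgam1 chr19:41911871-41918665 and Tpi1 chr6:124810586-124814158. Hk2 spans chr6:82725025-82774454, Gpi1 chr7:34201327-34230336 and Pfkl chr10:77986947-78009807. The Tpi1 window held no ACGTG on either strand. Of the 7 well-counted members, 4 had the motif (the fourth is Hk2) and Gpi1, Pfkl and Tpi1 did not. Of all 32851 promoter windows of this length, 19.6% held ACGTG and 7.15% held CACGTG. The GC box GGGCGG, on either strand, was in the window of all 7, against 35.7% of all windows. A match describes these letters and is not evidence of binding.

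Per kilobase of transcript, the wild-type fetal liver level was highest for Pgam1 at 537.1 CPM per kilobase. Pgk1 came next at 421.0, Tpi1 at 329.3, Gpi1 at 279.0 and Pfkl at 119.3 CPM per kilobase. The first 2 proteins of the route were the lowest on this scale, Slc2a1 at 35.4 and Hk2 at 16.5 CPM per kilobase. In the libraries labelled Lin28b KO this order was changed, and Slc2a1 stood first at 667.5 CPM per kilobase. Across the 7 groups the highest group mean of Slc2a1 was 81.6 times the lowest. The same ratio was 3.45 for Tpi1, 2.71 for Pgk1, 2.66 for Pgam1, 2.31 for Gpi1, 1.93 for Hk2 and 1.76 for Pfkl. For Tpi1, Pgk1, Pgam1, Gpi1 and Hk2 the highest value was that of the single inducible let-7 library, so these ratios rest on it.

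**Figure D1:**
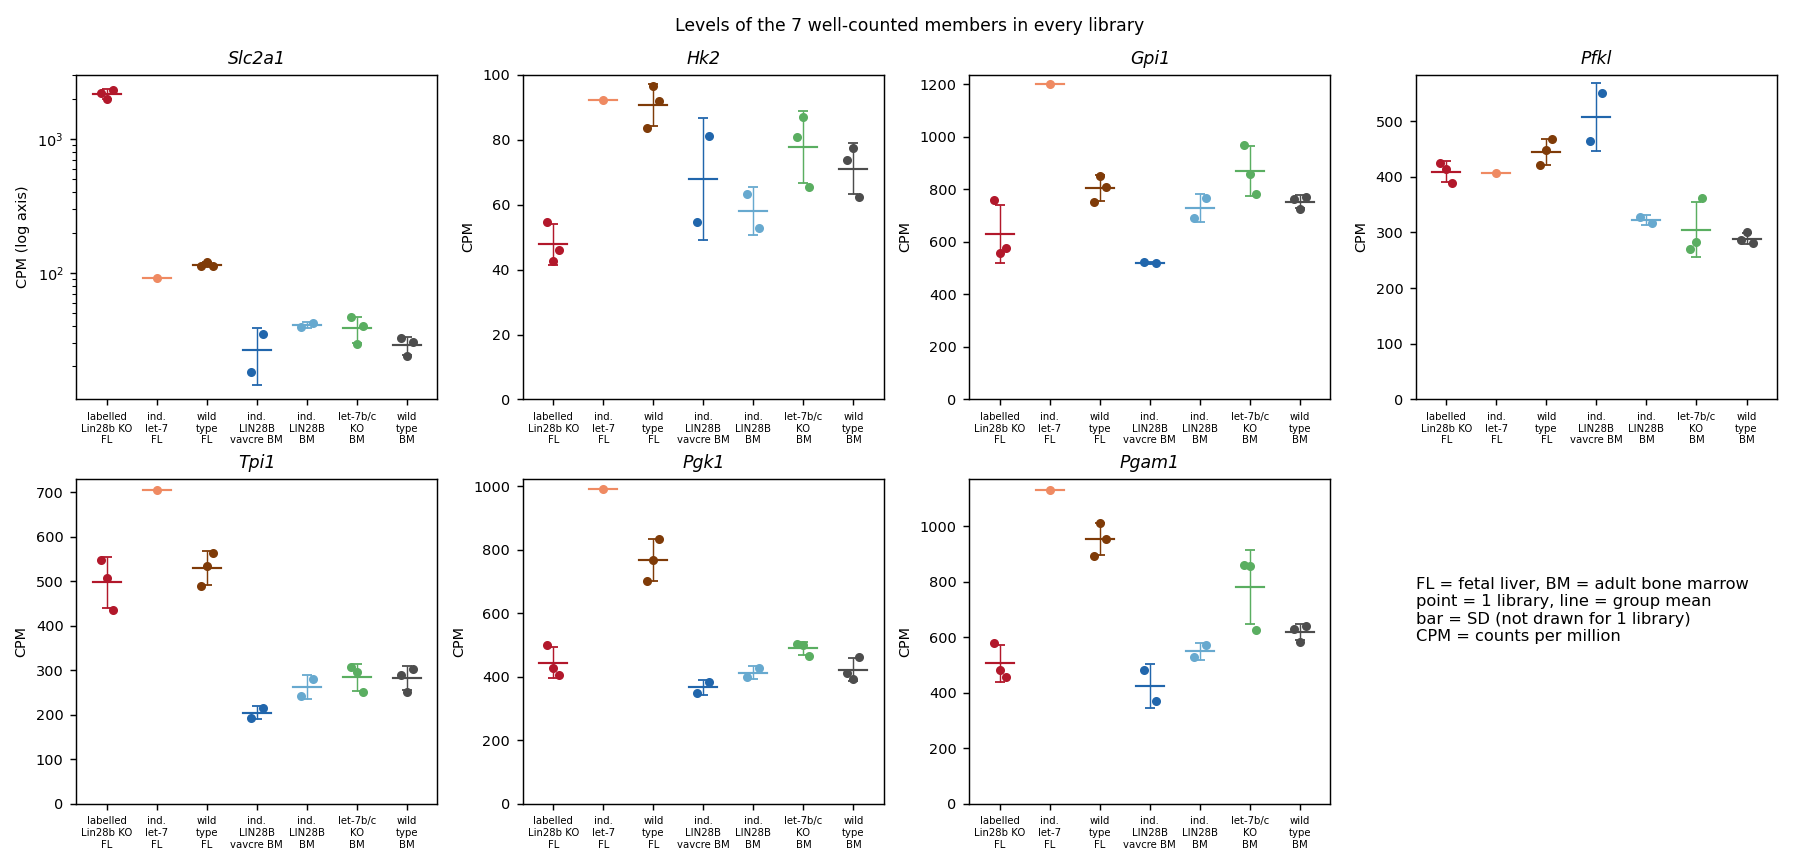
Level of 7 glycolysis and glucose uptake genes in CPM, 1 point per library, with the group mean as a line and the SD as a bar; the Slc2a1 axis is logarithmic and the others start at 0. Slc2a1 stands at 1996 to 2339 CPM in the libraries labelled Lin28b KO and under 121 CPM in every other library, while Tpi1, Pgk1 and Pgam1 are higher in wild-type fetal liver than in every bone marrow group.

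The comparison of wild-type fetal liver with wild-type bone marrow asked how the pathway differs between fetal and adult progenitors. In fetal liver 5 of the 10 members were higher and 0 lower, and of all tested genes 13.9% were called higher and 13.2% lower. The median log2 fold was 0.62 over the 10 members, 0.62 over the 7 well-counted ones and -0.08 over all tested genes. Among the 7 well-counted members Slc2a1 had the largest fold. It had 112.5, 120.2 and 113.0 CPM in wild-type fetal liver, against 32.6, 23.8 and 30.2 CPM in wild-type bone marrow. The groups did not overlap, and the level was 3.99-fold higher in fetal liver (log2 1.99 ± 0.20 SE, adjusted p = 4.0e-06). The hexokinase Hk2, which traps glucose, had 83.7, 96.6 and 91.9 CPM in fetal liver, against 73.6, 77.5 and 62.2 CPM in bone marrow. Its libraries did not overlap either, but it was not called (log2 0.35 ± 0.16 SE, adjusted p = 0.11). In a fit of these 2 groups alone it passed, with adjusted p = 0.013.

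Further down the route, the isomerase Gpi1 averaged 804.5 ± 49.3 CPM in fetal liver and 752.8 ± 25.4 CPM in bone marrow (SD, n = 3 each), with overlapping libraries and adjusted p = 0.56. Pfkl, the phosphofructokinase subunit first described in liver, averaged 445.1 ± 23.6 CPM in fetal liver and 289.0 ± 10.4 CPM in bone marrow (SD, n = 3 each). That is 1.54-fold higher in fetal liver (log2 0.62 ± 0.10 SE, adjusted p = 0.00026), with no overlap.

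The 3 readable enzymes that act after the sugar is split were all higher in fetal liver. Tpi1 had 488.6, 535.1 and 563.7 CPM in fetal liver, against 289.9, 251.7 and 303.2 CPM in bone marrow, 1.88-fold higher (log2 0.91 ± 0.11 SE, adjusted p = 1.9e-05). Pgk1, which makes the first ATP of the pathway, had 702.1, 768.7 and 833.9 CPM in fetal liver, against 410.3, 392.5 and 462.6 CPM in bone marrow, 1.82-fold higher (log2 0.86 ± 0.09 SE, adjusted p = 7.1e-06). Pgam1 had 894.5, 1011 and 954.9 CPM in fetal liver, against 631.1, 584.8 and 642.0 CPM in bone marrow, 1.54-fold higher (log2 0.62 ± 0.13 SE, adjusted p = 0.0018). In these 3 genes the lowest fetal liver library lay above the highest bone marrow library. In bulk libraries a change in the share of a cell type and a change of RNA per cell cannot be told apart. Markers of other cells differed between the groups. Of 13 tested granulocyte markers 12 were lower in fetal liver and 0 higher (median log2 fold -5.41), with summed levels of 402.8 to 494.2 CPM in fetal liver and 1559 to 2390 CPM in bone marrow. Macrophage and monocyte markers had 5 of 10 lower and 1 higher, megakaryocyte markers 4 of 6 lower and 0 higher, and lymphoid markers 3 of 6 higher and 0 lower. Erythroid markers had 4 of 21 lower and 1 higher, and their summed levels overlapped. The part of these cells in the member differences was not tested.

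The pathway around the members was read from lists of related genes. Of 26 tested genes for other isoenzymes and carriers, 3 were higher and 2 lower in fetal liver (median log2 fold -0.02). Slc16a1, which exports lactate, averaged 171.0 ± 6.71 CPM in fetal liver and 105.3 ± 6.51 CPM in bone marrow (SD, n = 3 each, adjusted p = 0.00077). Pkm, the last ATP-making step, of which few reads were kept, averaged 35.3 ± 2.98 CPM in fetal liver and 21.7 ± 0.754 CPM in bone marrow (adjusted p = 0.00098). Bpgm, which diverts a pathway intermediate to the regulator of oxygen binding in red cells, went the other way, with 19.7 ± 1.80 CPM in fetal liver and 30.9 ± 2.22 CPM in bone marrow (adjusted p = 0.00030). The neuronal-type glucose carrier Slc2a3 averaged 101.0 ± 4.96 CPM in fetal liver and 88.1 ± 12.6 CPM in bone marrow and was not called (adjusted p = 0.45).

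Past pyruvate, 6 of 12 tested genes of pyruvate entry into mitochondria were higher and 3 lower in fetal liver (median log2 fold 0.31). Pdha1, a subunit of pyruvate dehydrogenase, averaged 327.3 ± 11.9 CPM in fetal liver and 195.4 ± 9.26 CPM in bone marrow (adjusted p = 8.9e-07). Pdk1, the kinase that switches this enzyme off, was higher as well, with 321.8 ± 14.3 CPM in fetal liver and 210.9 ± 18.2 CPM in bone marrow (adjusted p = 0.00031). In the pentose phosphate branch 4 of 12 tested genes were higher and 0 lower (median log2 fold 0.14), and Pgd, its second dehydrogenase, had the smallest p, with 312.5 ± 13.7 CPM in fetal liver and 190.5 ± 1.36 CPM in bone marrow (adjusted p = 0.00038). Gluconeogenesis, the reverse route, had 3 of 4 tested genes lower and 0 higher (median log2 fold -0.77). Its control enzyme Fbp1 averaged 2.51 ± 0.210 CPM in fetal liver and 19.4 ± 1.96 CPM in bone marrow (adjusted p = 5.2e-06). Of 14 tested HIF targets outside the members, 5 were higher and 4 lower (median log2 fold 0.01). Hif1a, named here after its values were seen, averaged 312.0 ± 13.2 CPM in fetal liver and 191.6 ± 9.98 CPM in bone marrow (adjusted p = 0.00010).

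**Figure D2:**
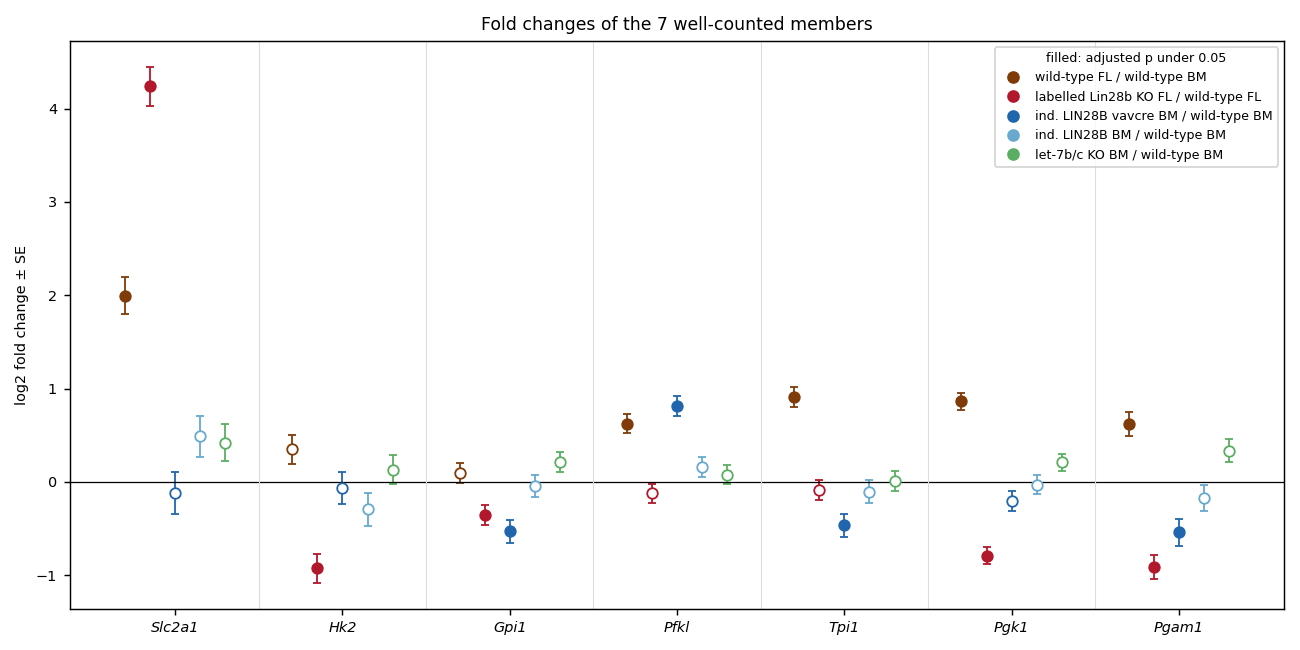
Log2 fold change with its standard error for 7 members in 5 comparisons, each named in the legend as first group over second; filled points have an adjusted p under 0.05. Slc2a1 has the largest fold changes, 4.24 in the libraries labelled Lin28b KO over wild-type fetal liver and 1.99 in wild-type fetal liver over wild-type bone marrow, and no point is filled for the let-7b/c knockout or for inducible LIN28B without vavcre.

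The libraries labelled Lin28b KO were set against wild-type fetal liver. Slc2a1 was higher in them and 4 of the 10 members were lower, against 20.8% of all tested genes called higher and 23% lower. The median log2 fold was -0.17 over the 10 members, -0.35 over the 7 well-counted ones and 0.00 over all tested genes. Slc2a1 had 2193, 1996 and 2339 CPM in the libraries labelled Lin28b KO, against 112.5, 120.2 and 113.0 CPM in wild-type fetal liver. The level was 18.9-fold higher (log2 4.24 ± 0.21 SE, adjusted p = 4.1e-10), and no other member in any comparison moved as far. Erythroid markers moved with it. All 21 tested markers of that list were called higher in the same comparison, with the summed levels given above. Add2 had 0 counts in both groups, and Alas2 and Ank1 had 0 counts in wild-type fetal liver. Markers of other cells were higher too, 13 of 14 tested hepatocyte, 12 of 13 granulocyte, 9 of 10 macrophage and monocyte and 6 of 6 megakaryocyte genes. Markers of the myeloid progenitors themselves had 4 of 7 lower and 1 higher (median log2 fold -1.19), and lymphoid markers 3 of 6 lower and 0 higher. The part of all these cells in the Slc2a1 difference, and in the other differences of these libraries, was not tested. In the other 14 libraries the summed erythroid level ranged from 274.1 to 1078 CPM and Slc2a1 from 18.1 to 120.2 CPM.

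**Figure D3:**
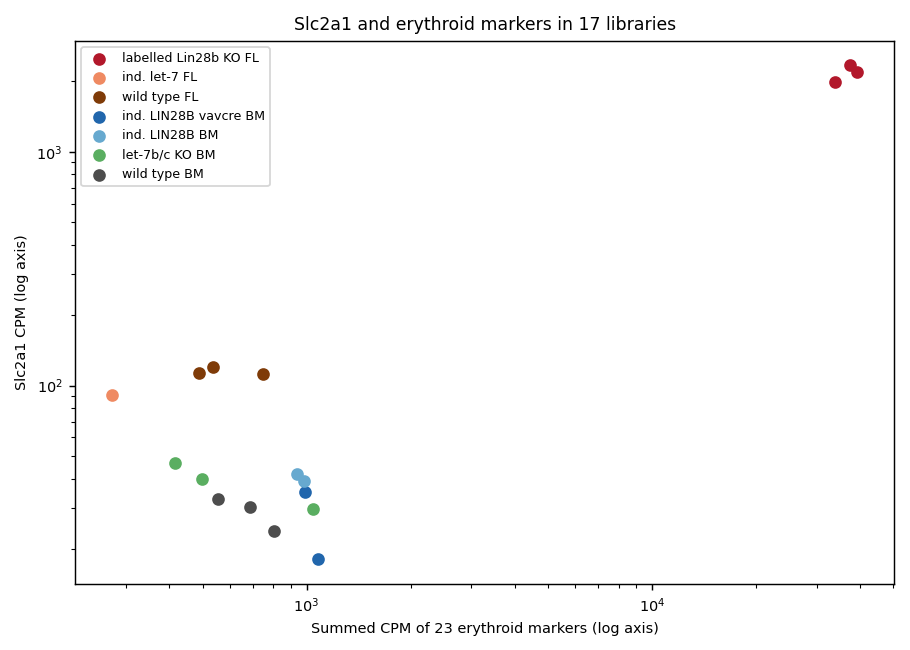
Slc2a1 level against the summed level of 23 erythroid markers, both in CPM on logarithmic axes, 1 point per library and 1 colour per group. The 3 libraries labelled Lin28b KO lie alone at 33969 to 39248 CPM of markers and 1996 to 2339 CPM of Slc2a1, and among the other libraries wild-type fetal liver has more Slc2a1 than bone marrow at like marker levels.

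Enzymes on either side of the phosphofructokinase step were lower in the libraries labelled Lin28b KO. Hk2 had 54.7, 42.6 and 46.0 CPM in them, against 83.7, 96.6 and 91.9 CPM in wild-type fetal liver, 1.90-fold lower (log2 -0.93 ± 0.16 SE, adjusted p = 0.00019). Gpi1 had 758.2, 556.6 and 576.1 CPM, against 753.6, 852.1 and 808.0 CPM in wild-type fetal liver (log2 -0.35 ± 0.11 SE, adjusted p = 0.014). One library labelled Lin28b KO, replicate 3, lay within the wild-type range, and the Gpi1 call was lost without replicate 6 or 8 of the labelled group or replicate 4 of wild type (adjusted p = 0.079, 0.071 and 0.067).

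Pgk1 had 498.8, 427.6 and 404.9 CPM in the libraries labelled Lin28b KO, against 702.1, 768.7 and 833.9 CPM in wild-type fetal liver, 1.73-fold lower (log2 -0.79 ± 0.09 SE, adjusted p = 4.3e-06). Pgam1 had 580.7, 480.8 and 457.1 CPM, against 894.5, 1011 and 954.9 CPM in wild-type fetal liver, 1.88-fold lower (log2 -0.91 ± 0.13 SE, adjusted p = 3.0e-05). Hk2, Pgk1 and Pgam1 had no overlap between the groups. Pfkl and Tpi1 overlapped. Pfkl averaged 409.0 ± 18.6 CPM in the libraries labelled Lin28b KO and 445.1 ± 23.6 CPM in wild-type fetal liver (adjusted p = 0.35), and Tpi1 averaged 497.1 ± 57.2 CPM in the labelled libraries and 529.2 ± 37.9 CPM in wild type (adjusted p = 0.53). With library totals in place of TMM the median of all genes shifted by -0.19 on the log2 scale, and these 2 genes then passed as lower (log2 -0.32, adjusted p = 0.026 for Pfkl, and -0.29, adjusted p = 0.017 for Tpi1). Among all genes, 35.3% of calls were then higher, against 47.5% with TMM. The other 5 calls stayed under that scaling.

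Several carriers and Bpgm were higher in the libraries labelled Lin28b KO. Of the 26 other isoenzymes and carriers, 9 were higher and 3 lower (median log2 fold 0.39). Bpgm had 1032, 894.3 and 1053 CPM in the libraries labelled Lin28b KO, against 18.8, 21.8 and 18.6 CPM in wild-type fetal liver, 50.3-fold higher (adjusted p = 5.0e-14). The insulin-responsive carrier Slc2a4 averaged 74.6 ± 7.36 CPM, against 0.346 ± 0.300 CPM in wild-type fetal liver (SD, n = 3 each, adjusted p = 3.4e-06). Slc16a1 averaged 452.3 ± 8.24 CPM, against 171.0 ± 6.71 CPM in wild-type fetal liver (adjusted p = 3.2e-07). Slc2a3 had 114.5, 131.3 and 154.1 CPM, against 106.6, 97.2 and 99.2 CPM in wild-type fetal liver, and was not called (adjusted p = 0.078), with no overlap.

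The side routes of the pathway stand against the same shares over all tested genes, 20.8% higher and 23% lower, and nothing particular to them is read from their counts. In the pentose phosphate branch 3 of 12 tested genes were higher and 1 lower (median log2 fold 0.01). The transaldolase Taldo1 averaged 941.5 ± 80.3 CPM in the libraries labelled Lin28b KO and 340.9 ± 12.6 CPM in wild-type fetal liver (adjusted p = 4.5e-10). G6pdx, the entry enzyme of the branch, averaged 210.8 ± 18.9 CPM in the labelled libraries and 110.0 ± 9.87 CPM in wild-type fetal liver (adjusted p = 5.8e-06). Of the 4 tested enzymes that set the level of the phosphofructokinase activator fructose 2,6-bisphosphate, Pfkfb2 was higher, at 26.3 ± 1.22 CPM against 6.42 ± 1.36 CPM in wild-type fetal liver (adjusted p = 1.4e-06). Tigar, which removes this activator, was lower, at 5.68 ± 0.232 CPM against 20.15 ± 1.30 CPM in wild-type fetal liver (adjusted p = 1.6e-06). Of 14 tested HIF targets 3 were higher and 5 lower (median log2 fold -0.28). Bnip3l, a mitophagy receptor that red cell precursors need, was higher, at 1103 ± 58.0 CPM against 223.7 ± 14.2 CPM in wild-type fetal liver (adjusted p = 8.2e-12).

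Among the 16 tested regulators, 4 were higher and 9 lower in the libraries labelled Lin28b KO (median log2 fold -0.71). Hif1a averaged 123.5 ± 9.34 CPM in them and 312.0 ± 13.2 CPM in wild-type fetal liver (adjusted p = 4.4e-08). The glucose-sensing factor Mlxip averaged 31.1 ± 3.13 CPM in them and 70.0 ± 1.17 CPM in wild-type fetal liver (adjusted p = 7.2e-07). Hmga2, a known let-7 target, averaged 22.6 ± 2.65 CPM in them and 532.5 ± 11.2 CPM in wild-type fetal liver (adjusted p = 3.5e-11).

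**Figure D4:**
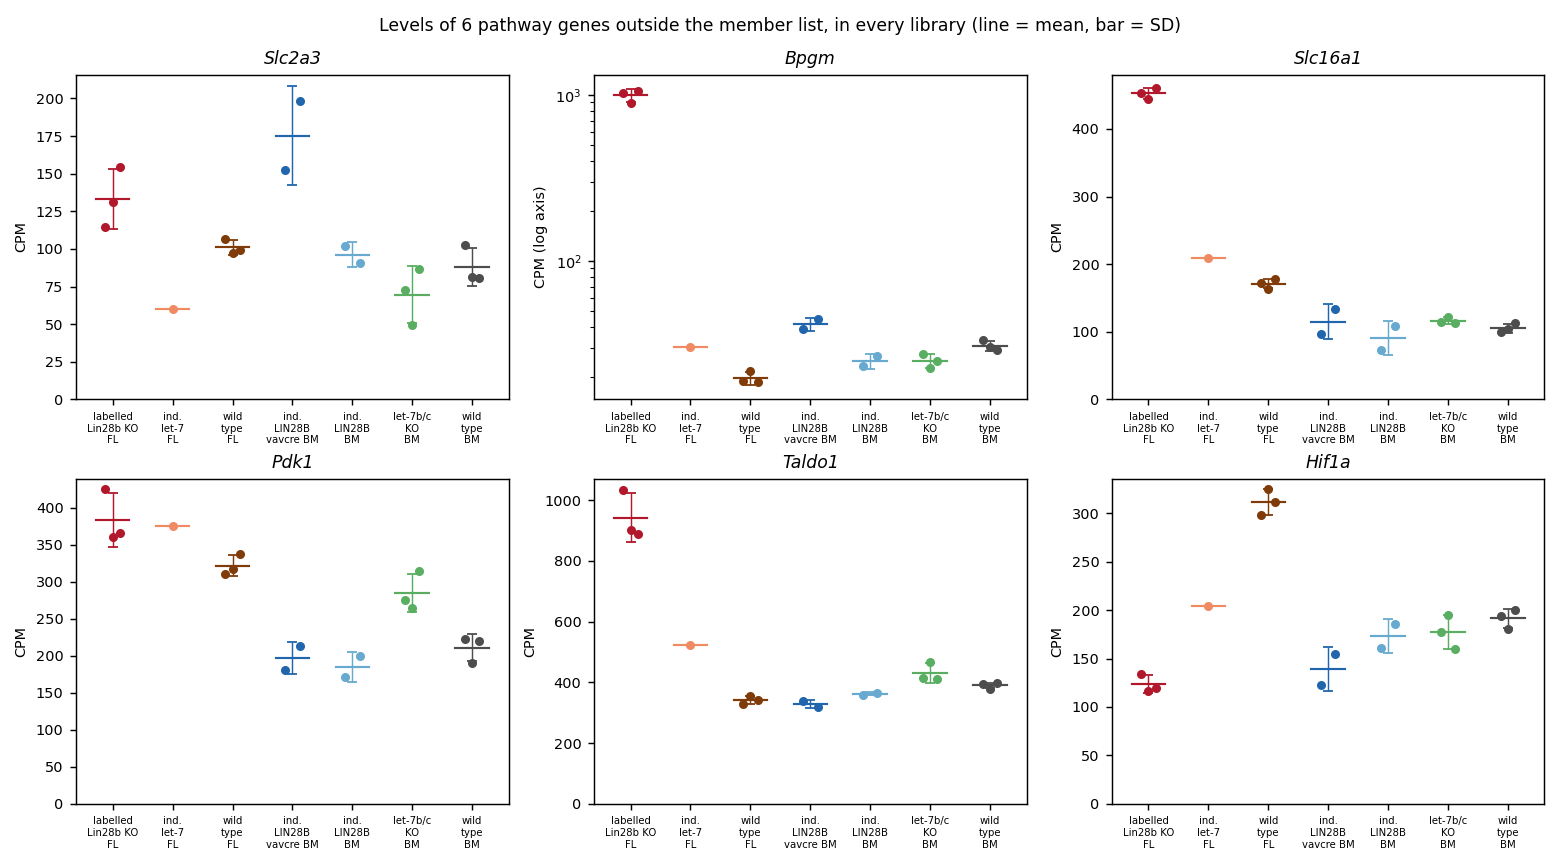
Level of 6 genes around glycolysis in CPM, 1 point per library, with the group mean as a line and the SD as a bar; the Bpgm axis is logarithmic and the others start at 0. Bpgm, Slc16a1 and Taldo1 are highest in the libraries labelled Lin28b KO, Slc2a3 is highest in inducible LIN28B marrow under vavcre, and Hif1a is highest in wild-type fetal liver.

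Adult marrow with inducible LIN28B was compared with wild-type bone marrow to ask whether the pathway differs in adult progenitors that carry it. Lin28b averaged 2.75 ± 1.03 CPM over the 4 libraries with inducible LIN28B and 0.359 ± 0.351 CPM in wild-type bone marrow. In wild-type fetal liver it averaged 104.2 CPM. Counts were made on mouse transcripts only, and the labels write the inducible gene as LIN28B. Whether the inducible copy has mouse sequence was not checked. These values may therefore miss it and are not read as its level. With both lines weighted equally, 1 of the 10 members, Pfkl, was higher and 0 lower, while 6.59% of all tested genes were higher and 7.86% lower. The median log2 fold was -0.20 over the 10 members, -0.18 over the 7 well-counted ones and -0.07 over all tested genes. Pfkl had 464.3 and 550.3 CPM under vavcre and 328.6 and 316.4 CPM without vavcre, against 286.4, 300.5 and 280.2 CPM in wild-type bone marrow. All 4 inducible LIN28B libraries lay above the wild-type ones (log2 0.48 ± 0.09 SE, adjusted p = 0.0037). Slc2a1 had 18.1 and 35.2 CPM under vavcre and 39.2 and 42.0 CPM without vavcre, against 32.6, 23.8 and 30.2 CPM in wild-type bone marrow. These groups overlapped (log2 0.19 ± 0.19 SE, adjusted p = 0.55). Pgam1, Gpi1 and Tpi1 had log2 folds of -0.36, -0.29 and -0.28, with adjusted p = 0.057, 0.066 and 0.071. All 3 passed as lower with DESeq2 (adjusted p = 0.020, 0.027 and 0.034). Of 10 macrophage and monocyte markers 6 were lower in these libraries and 0 higher. Erythroid markers had 2 of 21 higher and 0 lower, with sums of 941.5 to 1078 CPM, against 555.0 to 803.3 CPM in wild-type bone marrow. Summed myeloid progenitor markers were 6529 to 7068 CPM without vavcre and 10098 to 11833 CPM under vavcre, against 10629 to 12681 CPM in wild-type bone marrow. The part of these markers in the member values was not tested.

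Each line was then set against wild-type bone marrow, a split added after seeing the data. Under vavcre 1 member was higher and 3 lower, against 12.5% of all tested genes higher and 14.3% lower. Pfkl averaged 507.3 ± 60.8 CPM under vavcre and 289.0 ± 10.4 CPM in wild-type bone marrow (log2 0.81 ± 0.11 SE, adjusted p = 9.2e-05). Gpi1 had 523.9 and 518.7 CPM under vavcre, against 762.9, 723.8 and 771.5 CPM in wild-type bone marrow, 1.44-fold lower (log2 -0.53 ± 0.12 SE, adjusted p = 0.0046). Tpi1 had 193.7 and 214.6 CPM under vavcre, against 289.9, 251.7 and 303.2 CPM in wild-type bone marrow, 1.38-fold lower (adjusted p = 0.010). Pgam1 had 481.8 and 369.0 CPM under vavcre, against 631.1, 584.8 and 642.0 CPM in wild-type bone marrow, 1.46-fold lower (adjusted p = 0.011). No library of these 4 genes overlapped between the groups. Without vavcre 0 members were called, against 0.509% of all tested genes higher and 0.295% lower. At an unadjusted p under 0.05 the same edgeR fit had 1 member there, Slc2a1, and the share of all tested genes under that limit was not counted.

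The direct comparison of the lines called Pfkl higher and Gpi1 lower under vavcre, beside 9.37% of all tested genes higher and 11.3% lower. The median log2 fold was -0.32 over the 10 members, -0.36 over the 7 well-counted ones and -0.01 over all tested genes. Pfkl averaged 507.3 ± 60.8 CPM under vavcre and 322.5 ± 8.59 CPM without (SD, n = 2 each; log2 0.65 ± 0.12 SE, adjusted p = 0.0017). Gpi1 averaged 521.3 ± 3.72 CPM under vavcre and 728.5 ± 52.2 CPM without (log2 -0.48 ± 0.13 SE, adjusted p = 0.017). Neither gene overlapped between the lines. Lin28b itself averaged 2.83 ± 1.55 CPM under vavcre and 2.67 ± 0.858 CPM without (adjusted p = 0.96). As above, these mouse counts may miss the inducible copy. Cell markers differed too. Of 7 tested myeloid progenitor markers, Mpo (9698 ± 1402 CPM under vavcre and 5442 ± 405 CPM without, adjusted p = 0.014) and Csf1r (85.5 ± 5.38 CPM under vavcre and 39.6 ± 7.28 CPM without, adjusted p = 0.0018) were higher. Gata2 was lower (474.9 ± 48.7 CPM under vavcre and 770.6 ± 13.95 CPM without, adjusted p = 0.014). Erythroid markers had 2 of 21 higher and 3 lower, Epor among the lower ones (adjusted p = 0.018), and the part of these markers in the member differences was not tested. With only these 4 libraries in the fit Pfkl and Gpi1 both missed the threshold (adjusted p = 0.052 for each), and Gpi1 also did so without replicate 5 of the line without vavcre (adjusted p = 0.14) or replicate 6 of the vavcre line (adjusted p = 0.051). Slc2a1 was not called (log2 -0.61 ± 0.24 SE, adjusted p = 0.090), and without vavcre replicate 6 it passed as lower (log2 -1.17, adjusted p = 0.0020).

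Other genes of the pathway differed between the lines too. Slc2a3 was higher under vavcre, with 152.2 and 198.3 CPM, against 102.2 and 90.4 CPM without vavcre (adjusted p = 0.010), so the carriers Slc2a1 and Slc2a3 had opposite signs here. Bpgm was higher as well, with 41.7 ± 3.78 CPM under vavcre and 24.9 ± 2.53 CPM without (adjusted p = 0.00089). In the pentose phosphate branch 4 of 12 tested genes were lower and 0 higher (median log2 fold -0.48), and the smallest p was that of the transketolase Tkt, at 688.0 ± 55.1 CPM under vavcre and 952.7 ± 7.86 CPM without (adjusted p = 0.0020). Pyruvate entry had 5 of 12 higher and 1 lower (median log2 fold 0.13). The pyruvate carrier Mpc1 had the smallest p there, with 117.0 ± 14.1 CPM under vavcre and 73.2 ± 0.349 CPM without (adjusted p = 0.00065). Tigar averaged 24.7 ± 5.91 CPM under vavcre and 9.71 ± 0.514 CPM without (adjusted p = 0.00091).

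Adult marrow with inducible LIN28B was also set against wild-type fetal liver, the state in which Lin28b is naturally on. In the inducible LIN28B marrow 6 of the 10 members were lower and 0 higher, against 17.7% of all tested genes lower and 15% higher. The median log2 fold was -0.75 over the 10 members, -0.98 over the 7 well-counted ones and -0.01 over all tested genes. This comparison shares its fetal liver libraries with the comparisons above. Of 13 tested granulocyte markers 12 were higher in the inducible LIN28B marrow and 0 lower (median log2 fold 6.02). Erythroid markers had 8 of 21 higher and 1 lower, megakaryocyte markers 3 of 6 higher and 0 lower, and lymphoid markers 3 of 6 lower and 0 higher, and their part in the member differences was not tested. Slc2a1 averaged 33.6 ± 10.7 CPM over the 4 inducible LIN28B libraries and 115.2 ± 4.33 CPM in wild-type fetal liver (log2 -1.81 ± 0.18 SE, adjusted p = 3.2e-06). Tpi1 averaged 233.1 ± 37.9 CPM in inducible LIN28B marrow and 529.2 ± 37.9 CPM in fetal liver (log2 -1.19 ± 0.10 SE, adjusted p = 6.7e-07). Both had no overlap between the groups. Pgk1, Pgam1, Hk2 and Gpi1 were lower by log2 folds of -0.98, -0.98, -0.53 and -0.38 (adjusted p = 9.0e-07, 1.8e-05, 0.011 and 0.0076). For Gpi1 the lines were unlike, with 521.3 CPM under vavcre and 728.5 CPM without, against 804.5 CPM in fetal liver on average. The line without vavcre overlapped fetal liver in this gene. Pfkl, the member higher in the vavcre line, was not called, with 414.9 ± 112 CPM in inducible LIN28B marrow and 445.1 ± 23.6 CPM in fetal liver (adjusted p = 0.28). That mean joins 2 unlike lines. Pfkl averaged 507.3 CPM under vavcre, overlapping fetal liver, and 322.5 CPM without vavcre, below every fetal liver library. Neither line alone was tested against fetal liver.

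The comparison of let-7b/c knockout with wild-type adult marrow called 0 of the 10 members, against 1.33% of all tested genes higher and 0.922% lower. The median log2 fold was 0.10 over the 10 members, 0.21 over the 7 well-counted ones and 0.00 over all tested genes. DESeq2 called 0 as well. Pgam1 and Pgk1 had an unadjusted p under 0.05 with edgeR, but the share of all tested genes under that limit was not counted. Pgk1 had 501.5, 499.9 and 464.8 CPM in the knockout, against 410.3, 392.5 and 462.6 CPM in wild-type bone marrow (log2 0.21 ± 0.09 SE, adjusted p = 0.29). Pgam1 had 861.9, 855.3 and 626.4 CPM in the knockout, against 631.1, 584.8 and 642.0 CPM in wild-type bone marrow (log2 0.33 ± 0.13 SE, adjusted p = 0.22). Replicates 1 and 2 of the knockout were above the wild-type range and replicate 3 lay within it. Without that library Pgam1 passed (log2 0.50, adjusted p = 0.031). Slc2a1 had 46.6, 29.7 and 39.9 CPM in the knockout, against 32.6, 23.8 and 30.2 CPM in wild-type bone marrow, with overlap (adjusted p = 0.35). Around the members, Pdk1 was higher, with 285.2 ± 26.1 CPM in the knockout and 210.9 ± 18.2 CPM in wild-type bone marrow (adjusted p = 0.033), and so was Tigar, with 19.8 ± 3.10 CPM in the knockout and 10.99 ± 1.90 CPM in wild-type bone marrow (adjusted p = 0.027). The known let-7 target Hmga2 was not raised, with 7.80 ± 2.89 CPM in the knockout and 31.9 ± 3.46 CPM in wild-type bone marrow. Whether let-7 was lost in these libraries was not tested. Summed macrophage and monocyte markers were 1267 to 1626 CPM in the knockout, against 79.8 to 117.8 CPM in wild-type bone marrow. That sum was mostly Ccr2, at 1471 ± 205 CPM in the knockout and 59.7 ± 9.26 CPM in wild-type bone marrow (adjusted p = 0.00058). Of the 10 markers Ccr2 was the 1 higher, C1qc the 1 lower, and the median log2 fold was -1.51. Their part in the member values was not tested.

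The single inducible let-7 fetal liver library cannot be tested. Its values were set beside the 3 wild-type fetal liver libraries, and across all tested genes 32.6% lay above their range and 46.6% below it. Tpi1, Pgk1, Pgam1 and Gpi1 were above the range, Slc2a1 and Pfkl below it and Hk2 within it. Gpi1 was at 1203 CPM, against 753.6 to 852.1 CPM in wild-type fetal liver, which is 1.49 times the wild-type mean. Tpi1 was at 704.1 CPM, against 488.6 to 563.7 CPM, 1.33 times the wild-type mean. Slc2a1 was at 91.6 CPM, against 112.5 to 120.2 CPM, 0.795 times the wild-type mean. Most genes thus lay outside the range in one direction or the other, and nothing particular to the members is read from these positions.

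The profiles of the members over the 7 group means were compared, with the single inducible let-7 library as 1 of the 7 groups. Likeness was measured as the root mean square difference of log2 CPM after each gene was centred on its own mean, so that 0 means the same profile. Pgk1 and Pgam1 were the closest pair of members at 0.176, and Gpi1 and Pgam1 came next at 0.201. Slc2a1 differed from each of the other 6 by 1.77 to 2.24. Among 6954 genes at 10 CPM or more on average, the nearest to Slc2a1 were Mpp2 (0.467), Rab3il1 (0.506) and Hebp1 (0.523). Nearest to Tpi1 were the mitochondrial ribosomal protein genes Mrpl12 (0.113) and Mrpl11 (0.134) and then Isyna1 (0.136). Nearest to Pgk1 were Smyd5 (0.0688), Entpd6 (0.0807) and the cytokine gene Mif (0.0930). Pgk1 was thus nearer to each of these genes than to Pgam1, and nothing particular to the pathway is read from the member pairs. In the order of group means of Slc2a1, the libraries labelled Lin28b KO, wild-type fetal liver and inducible let-7 fetal liver were each apart from the next, and the 4 bone marrow groups overlapped with their neighbours. In the Tpi1 order the inducible let-7 library was apart, and wild-type fetal liver and the libraries labelled Lin28b KO overlapped. Both of these lay above all bone marrow groups.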

How the data were processed

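The members and gene lists were chosen with earlier results of these data known. Total RNA of sorted cells was made into cDNA with the SMARTer ultra-low-input chemistry, per the labels' protocols. Per the submitters' processing notes, cutadapt, TopHat2 and HTSeq were used with build mm10; for versions and strand, nothing is stated in the labels. The deposited files hold the authors' raw counts per RefSeq transcript. Reads outside any transcript (8.87% to 19.3% of uniquely placed reads) and ambiguous reads stayed out of library sizes. Of 33818 accessions, 33435 were named from RefSeq GRCm38.p6, 191 from GENCODE vM21 and 192 not at all, and counts were summed per gene. No 2 of the 136 pairs of libraries held identical counts.

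All 17 libraries entered 1 edgeR 4.0.16 fit (quasi-likelihood, filterByExpr, TMM, 7 group means, 10 residual degrees of freedom). SE is the log2 fold divided by the square root of F. All 10 members passed the filter. On simulated counts for the fetal liver and bone marrow wild types, 75% of 2-fold and 94% of 4-fold changes were recovered. Alternatives were DESeq2 1.42.0, other scalings, filters and sample sets, a replicate block and leaving out each library; the labels give no batch. A floor of 3 counts is 0.107 to 0.201 CPM and covers counting error only. Named genes were the members and, per list and comparison, up to 4 called genes by smallest p, of which some are not described here, plus isoenzymes of the members. Transcript lengths were taken from GENCODE vM21. Tools were R 4.3.3 and Python 3.11.15 with matplotlib 3.10.9, numpy 2.4.6 and pandas 2.3.3.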

Additional observations from a re-analysis of the deposited data

Results flagged for a closer look

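The level of 2 members differed between the 2 inducible LIN28B bone marrow lines, by the test of that difference. For Gpi1 the difference under vavcre minus without vavcre was -0.48 on the log2 scale (edgeR, adjusted p = 0.017), with 523.9 and 518.7 CPM under vavcre and 691.6 and 765.5 CPM without. For Pfkl it was 0.65 (adjusted p = 0.0017), with 464.3 and 550.3 CPM under vavcre and 328.6 and 316.4 CPM without. Both rest on 2 libraries per line, and both missed the threshold with only these libraries in the fit (adjusted p = 0.052 each) and under the replicate block (0.26 for Gpi1 and 0.064 for Pfkl).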

How the results depend on the processing

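Of 285 refits of the 19 called member folds, 269 kept direction and call and 16 lost the call. The called folds of wild-type fetal liver over bone marrow lost 1 call in all (Pgam1 under the replicate block, adjusted p = 0.054). No called fold changed sign. Signs reversed only for uncalled folds: with library totals, Gpi1 in fetal liver over bone marrow (-0.016) and Tpi1 in the let-7b/c knockout (-0.020). Leaving out 1 library gave -0.043 to 0.13 for Tpi1 in the let-7b/c knockout (below 0 without knockout replicate 1 or wild-type bone marrow replicate 5) and -0.035 to 0.18 for Pfkl (below 0 without knockout replicate 3). It gave -0.088 to 0.39 for Slc2a1 in inducible LIN28B over wild-type marrow and -0.090 to 0.49 for Hk2 between the lines, both below 0 without vavcre replicate 6. Slc2a1 was at -0.12 in the vavcre line alone. The cause was not tested.

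Members called in inducible LIN28B over wild-type bone marrow (1) were 3 with library totals, 4 with DESeq2, 2 with no low-count filter, 4 with at least 10 CPM in 3 libraries, 2 with those groups alone, 2 without the group labelled Lin28b KO and 2 with genes of 1 transcript. They were 0 for the line without vavcre and 4 for the vavcre line. Between the lines (2) they were 4 with DESeq2 and 0 with those groups alone. All genes called were 783 with DESeq2 in the let-7b/c knockout (305). In inducible LIN28B marrow (1958) they were 1132 with those groups alone, 109 for the line without vavcre and 3634 for the vavcre line. Between the lines (2799) they were 422 with those groups alone.

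Leaving out 1 library gave 5 to 6 members and 2792 to 3176 genes in fetal liver over bone marrow, 4 to 5 and 5084 to 5421 in the libraries labelled Lin28b KO, and 6 to 6 and 3435 to 4899 in inducible LIN28B marrow over fetal liver. It gave 1 to 2 members and 1095 to 2672 genes in inducible LIN28B over wild-type marrow, 1 to 3 and 1376 to 3152 between the lines, and 0 to 1 and 96 to 378 in the let-7b/c knockout. Gene counts moved by over 1.5 times without wild-type bone marrow replicate 2 (1095 in inducible LIN28B marrow, 96 in the let-7b/c knockout), replicate 5 (191 in the let-7b/c knockout) or replicate 6 (1206 and 142). They did so too without let-7b/c knockout replicate 2 (130), and without inducible LIN28B replicate 1 (1166 in inducible LIN28B marrow) or 5 (1376 between the lines). Member counts did so without let-7b/c knockout replicate 3 (1), vavcre replicate 4 (2) or wild-type bone marrow replicate 5 (2), both in inducible LIN28B marrow, and inducible LIN28B replicate 5 (1 between the lines).

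With library totals the median log2 fold of all genes shifted by -0.11 in fetal liver over bone marrow, where 38.1% of calls were then higher against 51.3%, and by 0.11 in inducible LIN28B marrow over fetal liver (59.8% against 45.9%). Replicate numbers are not read as pairs of samples. Any 2 groups compared share at most 2 numbers. The deviations of same-numbered libraries from their group means correlated at -0.083 to 0.030. With numbers as a replicate block, 4 members and 2185 genes were called in fetal liver over bone marrow, 2 and 3073 in the libraries labelled Lin28b KO, 1 and 274 in inducible LIN28B over wild-type marrow, 0 and 435 between the lines, 4 and 3320 in inducible LIN28B marrow over fetal liver (Hk2 and Gpi1 lost the call, adjusted p = 0.068 and 0.073), and 0 and 35 in the let-7b/c knockout. Reads set aside as ambiguous limit what Pfkp, Eno1 and Ldha can show.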
